A study of Mus musculus with 96 samples.

Results

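The 15 cells with the highest and the 15 cells with the lowest share of mitochondrial transcripts were compared within 1 culture condition of mouse embryonic stem cells. The share is the summed count of the 37 genes encoded by mitochondrial DNA divided by all gene counts of the cell, and it was computed for 61 cells. The cell of well A07, at 0.0543%, was left out as far below every other cell, which leaves 30 cells between the groups. The members were thus chosen by their measured share, so the share, the mitochondrial genes and the totals that enter it are described without a test. The high-share and the low-share cells carry the same labels: single cells of the E14 line, strain/background C57BL/6, wild-type, grown in serum/LIF. Serum/LIF is medium with serum and leukaemia inhibitory factor, a cytokine that keeps stem cells undifferentiated. The series lists 96 samples, of which 76 are serum/LIF wells, 16 are wells of cells in 2i medium and 4 are wells with no cell. It asks how differences in transcription between cells relate to differences in their DNA methylation. The 2i wells were not analysed here.

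Mitochondrial DNA is a small circle that encodes 13 proteins of the respiratory chain and ATP synthase, the 2 RNAs of the mitochondrial ribosome and the tRNAs needed to translate them. It is copied by the polymerase Polg with the helicase Twnk, packed and switched on by Tfam, and transcribed by Polrmt into long precursors that are cut at the tRNAs. All other mitochondrial proteins, including most subunits of the respiratory complexes, come from nuclear genes and are imported. In single-cell data the share of mitochondrial transcripts is also widely used as a measure of library quality, since a cell that has lost cytoplasmic RNA keeps relatively more of them.

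Both groups carried markers of the labelled cell type, though not all of them in every cell. Pou5f1, a core pluripotency factor, had counts in 15 of 15 high-share and 15 of 15 low-share cells, and so did Tdgf1, L1td1 and Epcam. Other markers of embryonic stem cells were missing from part of the cells. Zfp42 had counts in 11 high-share and 10 low-share cells, and Esrrb in 6 high-share and 2 low-share cells. Markers of other lineages were present in part. The 20 primitive endoderm markers summed to 165 to 2906 CPM (counts scaled to a nuclear total of 1000000 per cell) in high-share cells (median 1415) and to 535 to 2929 CPM in low-share cells (median 1357), with 5 of them, Gata6, Sox7, Foxa2, Ttr and Hnf4a, at 0 in all 30 cells. Only 6 of the 20 had enough counts to be tested. Gata4 and Pdgfra each had counts in 1 high-share and 1 low-share cell, and Sox17 in 0 high-share and 1 low-share cells. The 12 trophectoderm markers had median sums of 48.1 CPM in high-share and 13.6 CPM in low-share cells, with Elf5 and Tpbpa at 0 and Cdx2 detected in 3 high-share and 6 low-share cells. The 15 neurectoderm markers had median sums of 40.1 CPM in high-share and 79.0 CPM in low-share cells, with 9 at 0, among them Sox1, and Pax6 detected in 3 high-share and 5 low-share cells. The 19 fibroblast markers, which would mark feeder cells, summed to 13.4 to 4393 CPM in high-share cells (median 294) and to 0.862 to 1119 CPM in low-share cells (median 735), with 4 of them, Lum, Postn, Prrx1 and Fap, at 0. Only 3 of the 19 had enough counts to be tested. Col1a1 had counts in 2 high-share and 1 low-share cells, Col3a1 in 1 high-share and 0 low-share cells, and Dcn in 0 high-share and 2 low-share cells. The part of these markers of other lineages in the results was not tested. Total counts ran from 2794253 to 5054247 in high-share cells (median 3468366) and from 3264525 to 6787261 in low-share cells (median 4614127).

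The share was 2.55% to 4.45% in high-share cells (median 2.72%, mean 2.99% ± 0.61, SD, n = 15) and 0.741% to 1.38% in low-share cells (median 1.24%, mean 1.19% ± 0.20, SD, n = 15). The cells between the groups lay at 1.39% to 2.52%. There was no break at either limit: the last cell inside the high group had 2.55% and the next cell 2.52%, while the last cell outside the low group had 1.39% and the first inside it 1.38%. The cells of wells F07 and B05, at 4.45% and 4.43%, stood apart from the next cell at 3.09%. Numerator and denominator both differed: mitochondrial counts averaged 108231 in high-share cells and 57165 in low-share cells, a ratio of 1.89, and total counts averaged 3682898 in high-share cells and 4830120 in low-share cells, a ratio of 0.762. Across the 60 cells the share had a Spearman rho of -0.45 with total counts, which are its denominator. Spike-ins held too few counts to tell the amount of RNA in a cell from the depth of its library. More mitochondrial RNA and less other RNA in a cell therefore cannot be told apart from the share alone.

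**Figure D1:**
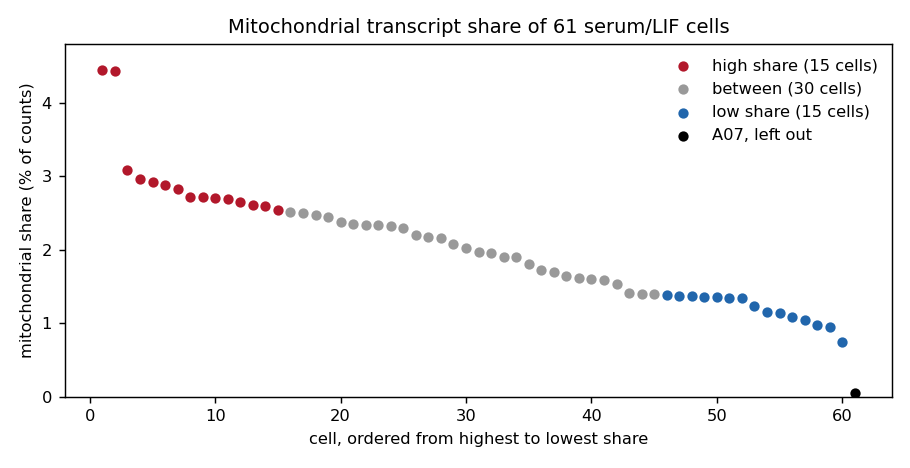
Mitochondrial share of each of the 61 serum/LIF cells (percent of gene counts, vertical axis) in order from highest to lowest (horizontal axis), coloured by group. The values fall without a gap from 3.09% to 0.741%, with the 2 cells at 4.43% and 4.45% above them and A07 at 0.0543%.

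Among the mitochondrial genes, mt-Rnr2, the large ribosomal RNA, held the most counts over all cells (31.9% of mitochondrial counts), followed by mt-Co1, a core subunit of cytochrome c oxidase (27.6%), and mt-Nd1, a subunit of complex I (15.9%). As a percentage of all gene counts, mt-Rnr2 averaged 1.03% ± 0.35 in high-share and 0.368% ± 0.134 in low-share cells (SD, n = 15 each), and mt-Nd1 averaged 0.567% ± 0.238 in high-share and 0.153% ± 0.050 in low-share cells. The ratio of these means, high over low, was 2.80 for mt-Rnr2 and 3.70 for mt-Nd1. It was 3.51 for mt-Nd2, 3.19 for mt-Rnr1 (the small ribosomal RNA), 3.06 for mt-Nd6, 2.36 for mt-Cytb (the cytochrome b of complex III), 2.34 for mt-Nd5 and 2.26 for mt-Nd4. For mt-Co1 it was 1.73. The ratio thus differed between genes that share the same genome and, for all but mt-Nd6, the same strand.

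The composition of the mitochondrial counts shows the same spread. Mt-Co1 made up 21.6% ± 9.3 of the mitochondrial counts in high-share cells and 31.6% ± 12.9 in low-share cells, with ranges of 9.89% to 47.3% in high-share cells and 16.6% to 59.3% in low-share cells that overlap widely. Mt-Nd1 made up 18.7% ± 5.3 in high-share and 12.9% ± 3.9 in low-share cells. Mt-Rnr2 made up 34.9% ± 11.9 in high-share and 30.7% ± 9.5 in low-share cells, and in the high-share cell of lowest mt-Rnr2 it made up 5.22%. Which genes are summed therefore matters: with the 13 coding genes alone, 10 of the 15 high-share and 12 of the 15 low-share cells stayed in their groups.

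**Figure D2:**
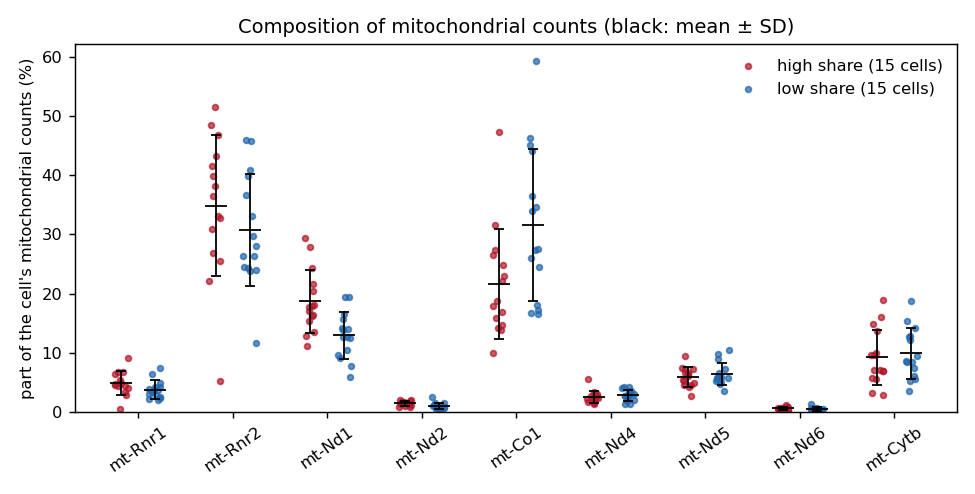
Part of each cell's mitochondrial counts (percent, vertical axis) taken by 9 mitochondrial genes (horizontal axis), for 15 high-share cells (red, left) and 15 low-share cells (blue, right); black marks are the mean ± SD. Mt-Co1 averaged 21.6% in high-share cells and 31.6% in low-share cells, and the points of both groups overlap for each gene shown.

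A run of neighbouring mitochondrial genes had almost no counts in any cell. Over 61 cells, mt-Co1 had 900810 counts per kb of gene, whereas mt-Co2 had 1263, mt-Atp6 2034, mt-Atp8 1309, mt-Co3 665, mt-Nd4l 448 and mt-Nd3 43.1 counts per kb. These genes encode the other core subunits of cytochrome c oxidase, the membrane subunits of ATP synthase and 2 small subunits of complex I. Nuclear DNA holds a copy of this stretch: in the GENCODE M21 annotation of GRCm38, transcripts on the minus strand between positions 24611535 and 24616197 of chromosome 1 match it with few differences. Gm28661 had 0 differences from mt-Co2 over 681 bases, Gm10925 had 0 from mt-Atp6 over 678, Gm28437 had 0 from mt-Co3 over 783, and Gm10222 had 0 from mt-Nd4l over 294. Gm28438 had 1 difference from mt-Nd3 over 345 bases, T3C, counted from 1 at the 5′ end of the transcript with the mitochondrial base first.

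The transcript starts of mt-Nd3 (chrM:9459-9806, plus strand) and of its copy Gm28438 (chr1:24612775-24613119, minus strand) are shown because they hold the only difference in that pair, in capitals; bases 31 to 90 of mt-Nd4l (chrM:9877-10173, plus strand) and of Gm10222 (chr1:24612407-24612700, minus strand) are shown as a stretch with no difference.
mt-Nd3: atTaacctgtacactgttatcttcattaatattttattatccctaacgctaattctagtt
Gm28438: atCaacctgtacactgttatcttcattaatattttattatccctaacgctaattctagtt
mt-Nd4l: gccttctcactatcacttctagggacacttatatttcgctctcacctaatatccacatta
Gm10222: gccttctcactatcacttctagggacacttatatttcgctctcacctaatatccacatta
A read from such a stretch fits both places equally well. The labels do not say how reads of that kind were counted, and its part in the low counts was not tested. The genes with low counts lie within the span of these copies, although no annotated copy of mt-Atp8 itself was found. For mt-Nd4, with 95114 counts per kb, the first 876 of 1378 bases match Gm28439 with 0 differences. That copy covers 63.6% of mt-Nd4, and counts were not split between the bases inside and outside it. The share of each cell is thus, in effect, the share of the remaining mitochondrial genes, in high-share and low-share cells alike. Of 17 annotated nuclear copies, 8 have a row in the count table, and 0 of these had enough counts to be tested among the nuclear genes.

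High-share and low-share cells did not lie evenly over the plate. Row F of the wells held 6 high-share and 0 low-share cells among its 8, and row B held 3 high-share and 0 low-share cells among 9. Row A held 0 high-share and 6 low-share cells among its 7, and row E 0 high-share and 4 low-share cells among 7. The median share was 2.70% in row F and 1.35% in row A. Row A also had the largest total counts, with a median of 5826878, and row F the smallest, with a median of 3255748. The labels give well names only, not what the rows stand for, and 5 of the 8 rows (A, B, E, F and G) hold cells of 1 of the groups without the other, so row and share cannot be told apart there. Rows C, D and H hold both groups, with 4 high-share and 5 low-share cells.

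**Figure D3:**
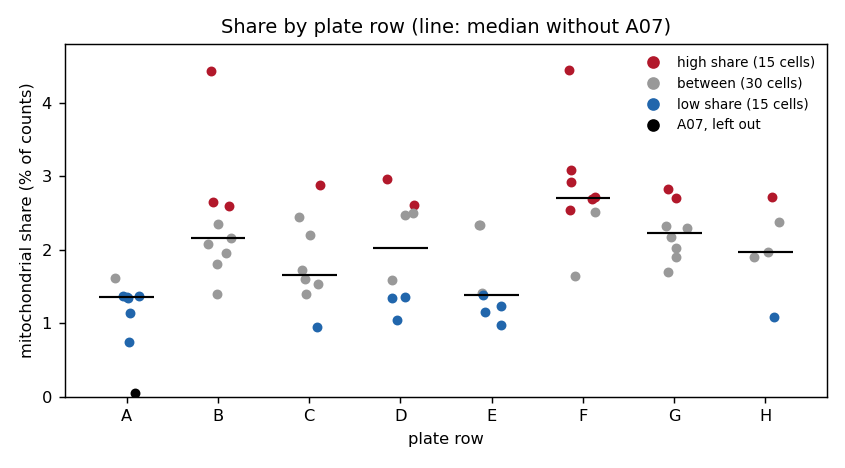
Mitochondrial share (percent of gene counts, vertical axis) by row of the well name (horizontal axis); each point is 1 cell, coloured by group, and lines are row medians without A07. Row F has a median of 2.70% and row A of 1.35%.

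Fewer nuclear genes were detected on average in high-share cells, by less than the test could separate. High-share cells had 6403 to 10007 genes with a count (median 8358, mean 8086 ± 936, SD, n = 15) and low-share cells 7084 to 9735 (median 8614, mean 8586 ± 724, SD, n = 15). The difference of -500 genes had a two-sided permutation p of 0.114 (adjusted over 3 versions of the measure, 0.171). After thinning every cell to 2712779 nuclear counts it was -387 genes (permutation p = 0.218). Counting only genes with at least 10 counts, it was -502 genes (permutation p = 0.0659, adjusted 0.171). Chromosome 14 took an unusually low part of the counts in 5 cells, under 0.75 times the median, and 3 of these were high-share and 0 low-share cells.

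No nuclear gene passed the threshold between the groups. Of 8400 nuclear genes tested with edgeR's quasi-likelihood test, 0 (0%) had an adjusted p under 0.05, and 145 (1.73%) had an unadjusted p under 0.05, of which 69 had the higher estimate in high-share and 76 in low-share cells. DESeq2 called 2 genes, Mreg and Zfp42 (0.0247% of the 8085 genes to which it gave an adjusted p), with 236 (2.81% of 8400) at an unadjusted p under 0.05. Mreg passed the filter on low counts mainly through high-share cells, so its call is no support for a difference. Limma-trend called 0 (0%), with 496 (5.9%) at an unadjusted p under 0.05. The median log2 fold change over all genes tested was -0.04, and 46.9% of the estimates were above 0. The estimates were imprecise: for 904 genes (10.8%) the 95% interval lay within 1 log2 unit of no difference on both sides, so for the other genes a change of 2-fold in 1 direction or the other remains within the interval. A gene that missed the threshold is not shown to be alike in the groups.

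The 10 genes of smallest p are given as values only, since none passed in edgeR. Mreg (chr1:72159442-72212307), which encodes melanoregulin, a protein of organelle transport, had 0 to 302 CPM in high-share cells (median 2.55) and 0 to 4.34 CPM in low-share cells (median 0.313). Zfp42 (chr8:43295063-43306980), which encodes the naive pluripotency marker Rex1, had 0 to 1854 CPM in high-share cells (median 34.4) and 0 to 33.4 CPM in low-share cells (median 2.82). Cells at 0 occurred in both groups for both genes, so the groups overlap at the bottom and differ at the top. At least 10 CPM of Mreg was reached by 6 of 15 high-share, 8 of 30 intermediate and 0 of 15 low-share cells. At least 10 CPM of Zfp42 was reached by 8 high-share, 16 intermediate and 3 low-share cells. The log2 fold change was 6.20 ± 1.55 (SE) for Mreg and 5.67 ± 1.48 for Zfp42, each with an adjusted p of 0.9998 in edgeR's quasi-likelihood test. The adjusted p was 0.0042 for Mreg and 0.0048 for Zfp42 in DESeq2, and 0.758 for Mreg and 0.813 for Zfp42 in limma-trend. Mreg passed the filter on low counts mainly through high-share cells, so its estimate and its DESeq2 call are no support for a difference.

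Genes counted in every cell gave smaller and tighter differences. Ddx6 (chr9:44604892-44640731), an RNA helicase of processing bodies, had 176 to 943 CPM in high-share cells (median 590) and 27.9 to 332 CPM in low-share cells (median 225), a log2 fold change of 1.27 ± 0.32. Gpx4 (chr10:80047166-80056439), the selenoprotein that reduces lipid peroxides in membranes, had 120 to 1574 CPM in high-share cells (median 441) and 95.0 to 864 CPM in low-share cells (median 191), a log2 fold change of 1.16 ± 0.33. Both groups overlap for each gene. Selenoh, another selenoprotein, had 72.2 to 391 CPM in high-share cells (median 196) and 208 to 611 CPM in low-share cells (median 382), a log2 fold change of -0.81 ± 0.22. Morf4l2, a chromatin protein, had medians of 294 CPM in high-share and 621 CPM in low-share cells, a log2 fold change of -0.88 ± 0.26. Spry2, an inhibitor of growth factor signalling, had medians of 153 CPM in high-share and 64.1 CPM in low-share cells, a log2 fold change of 1.43 ± 0.44. The adjusted p of each was 0.9998 in edgeR.

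The other 3 genes were patchy. Cysltr1, a leukotriene receptor, had counts in 3 of 15 high-share and 10 of 15 low-share cells, and Ctsc, the lysosomal protease cathepsin C, in 2 of 15 high-share and 10 of 15 low-share cells. Their log2 fold changes were -5.69 ± 1.60 for Cysltr1 and -5.23 ± 1.60 for Ctsc. Ctsc reached 10 counts in 10 low-share cells, enough to pass the filter without a high-share cell. Cysltr1 reached at least 10 CPM in 1 high-share and 9 low-share cells. Both thus passed the filter mainly through low-share cells, so these estimates are no support for a difference. Mroh1 had 12 of 15 high-share and 13 of 15 low-share cells with a count, but reached at least 10 CPM in 4 high-share and 0 low-share cells, and its log2 fold change was 3.87 ± 1.14. The adjusted p of each was 0.9998 in edgeR's quasi-likelihood test. Ctsc was called in edgeR without the high-share cell of well F05, but it then reached 10 counts in 0 high-share and 10 low-share cells, so it passed the filter only through the low-share cells and the call is no support for a difference.

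**Figure D4:**
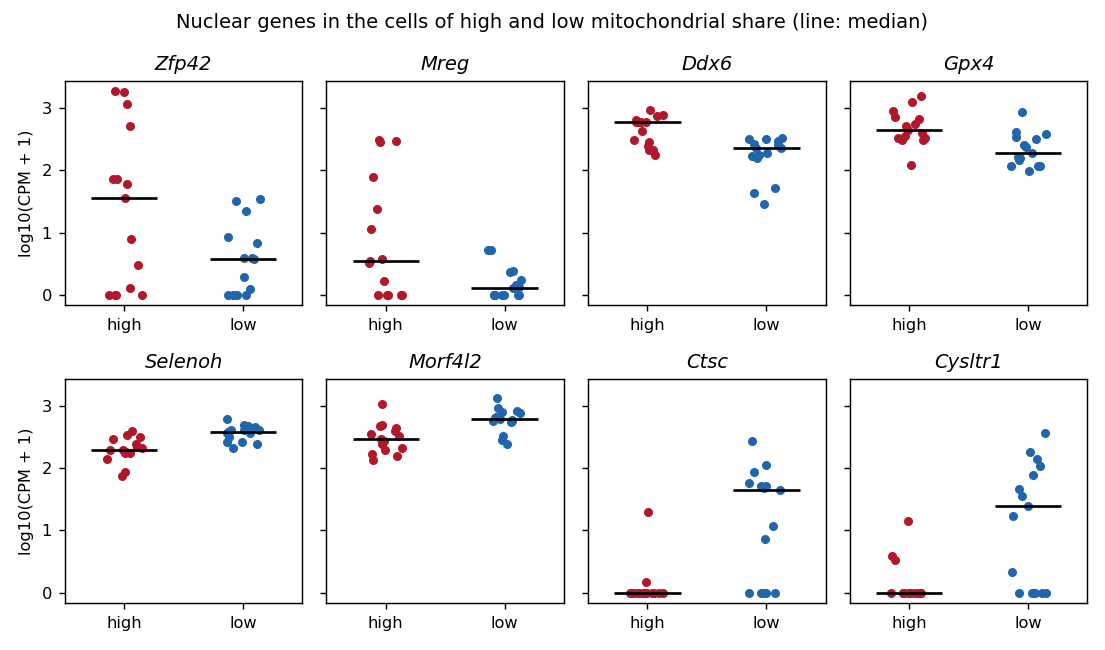
Levels of 8 nuclear genes, as log10(CPM + 1) on the vertical axes, in 15 high-share cells (red, left) and 15 low-share cells (blue, right); each point is 1 cell and lines are medians. Zfp42 and Mreg have high-share cells above every low-share cell and cells at 0 in both groups, and none of the 8 genes passed the edgeR threshold.

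No nuclear gene of mitochondrial function passed the threshold. Of 329 members tested over 10 lists (356 listed), 0 passed the threshold, 3 had the higher and 4 the lower estimate in high-share cells at an unadjusted p under 0.05 (over all genes tested, 0.821% and 0.905%), and the median log2 fold change was -0.09, beside -0.04 over all genes tested. For 91 of the 329 the 95% interval lay within 1 log2 unit of no difference. The mean mitochondrial share, by contrast, was 2.51 times as large in high-share as in low-share cells, as the choice of the groups sets.

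Of 35 tested nuclear subunits of complex I, which takes electrons from NADH and to which mt-Nd1 to mt-Nd6 belong, 11 had an estimate above 0. That is 31.4%, beside 46.9% of all genes tested, and the median log2 fold change was -0.17. Ndufb8 had 304 to 959 CPM in high-share cells (median 604) and 273 to 960 CPM in low-share cells (median 497), a log2 fold change of 0.12 ± 0.18. Ndufa7 had medians of 453 CPM in high-share and 614 CPM in low-share cells, a log2 fold change of -0.24 ± 0.16. The groups overlap for both genes, and the highest and the lowest Ndufa7 values were both in high-share cells. Of 40 nuclear subunits of complexes II to V, 14 had an estimate above 0, and the median was -0.06. That median was 0.21 with the well row as a covariate and 0.05 without rows A and F, so its sign was not stable. Cox4i1, the nuclear partner of mt-Co1 in cytochrome c oxidase, had medians of 1169 CPM in high-share and 1175 CPM in low-share cells, a log2 fold change of 0.13 ± 0.15. Atp5b, the catalytic subunit of ATP synthase, had medians of 1647 CPM in high-share and 1926 CPM in low-share cells, a log2 fold change of -0.01 ± 0.17, whose sign changed with the scaling. Atp5d, another subunit, had the smallest p of that list, with medians of 109 CPM in high-share and 245 CPM in low-share cells and a log2 fold change of -0.90 ± 0.29 (unadjusted p = 0.0040, not past the adjusted threshold in edgeR).

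The machinery that copies and transcribes mitochondrial DNA was measured less precisely, with the 95% interval within 1 log2 unit of no difference for 1 of 17 genes of DNA maintenance and 2 of 31 of transcription and RNA processing. Of 17 tested genes of mitochondrial DNA maintenance, 9 had an estimate above 0, and the median log2 fold change was 0.20. Tfam had 1.32 to 405 CPM in high-share cells (median 108) and 9.99 to 288 CPM in low-share cells (median 94.2), a log2 fold change of 0.60 ± 0.50. Ssbp1, which coats single-stranded mitochondrial DNA, had medians of 272 CPM in high-share and 324 CPM in low-share cells, a log2 fold change of -0.30 ± 0.25. Polrmt had counts in 8 of 15 high-share and 6 of 15 low-share cells, and its log2 fold change of 1.31 ± 1.44 was smaller than its error. Of 31 tested genes of mitochondrial transcription and RNA processing, 13 had an estimate above 0, and the median was -0.12. Lrpprc, which stabilises mitochondrial messenger RNAs, had a log2 fold change of 0.35 ± 0.80. Slirp, its partner, had 66.1 to 316 CPM in high-share cells (median 168) and 135 to 422 CPM in low-share cells (median 260), a log2 fold change of -0.50 ± 0.23 (unadjusted p = 0.039, not past the adjusted threshold in edgeR).

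Mitochondrial ribosomal proteins, all nuclear-encoded, had a median log2 fold change of -0.18, with 25 of 78 estimates above 0. Of 40 import factors and chaperones, 15 had an estimate above 0 (median -0.11). Hspd1, the matrix chaperonin, had medians of 774 CPM in high-share and 846 CPM in low-share cells, a log2 fold change of 0.27 ± 0.21. Vdac2, a channel of the outer membrane, had 75.5 to 795 CPM in high-share cells (median 413) and 352 to 933 CPM in low-share cells (median 614), a log2 fold change of -0.57 ± 0.22 (unadjusted p = 0.017, not past the adjusted threshold in edgeR). Regulators of mitochondrial biogenesis had a median of 0.16 over 16 tested genes. Mycn, the Myc family member of early embryonic cells, had medians of 192 CPM in high-share and 47.2 CPM in low-share cells and a log2 fold change of 1.51 ± 0.82, and Myc one of -0.96 ± 1.41. Ppargc1a, the coactivator known for inducing mitochondria in muscle and fat, had counts in 1 high-share and 0 low-share cells. Genes of the TCA cycle had a median of -0.06, which reached 0.01 under another scaling, and genes of glycolysis one of -0.09.

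**Figure D5:**
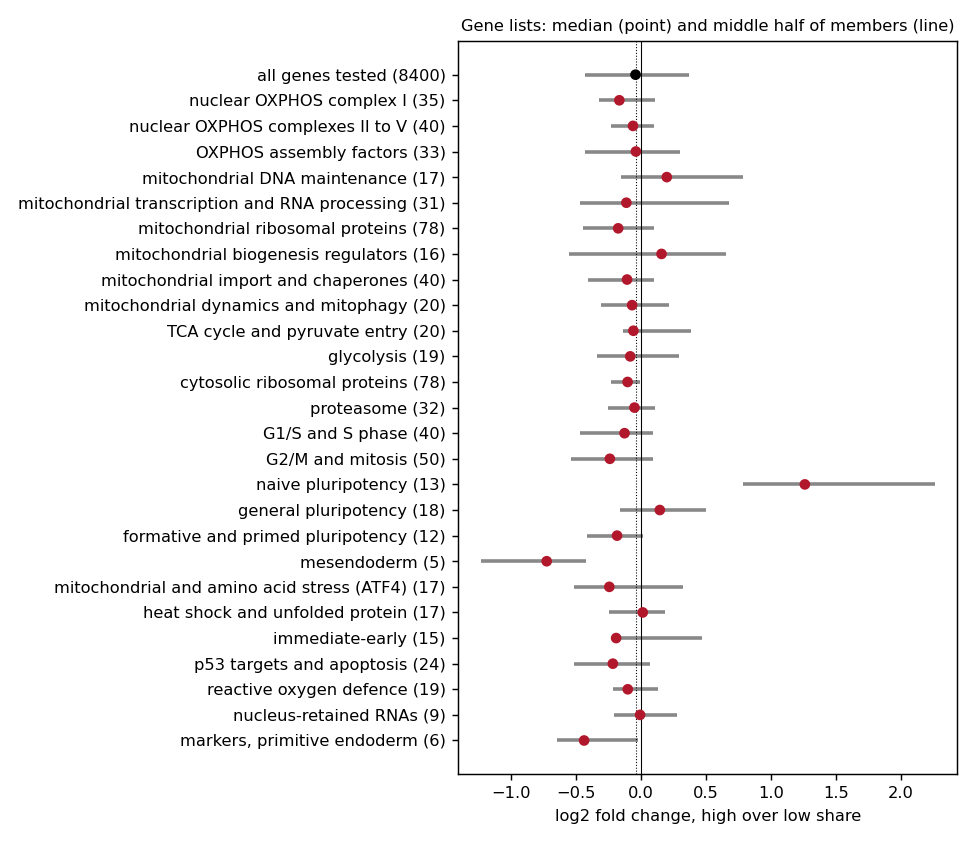
Log2 fold change, high over low share (horizontal axis), for lists of nuclear genes (vertical axis, number tested in parentheses); points are medians and lines span the middle 50% of members. The lists of mitochondrial function lie between -0.18 and 0.20, the median of all 8400 genes is at -0.04 (dotted line), and the list of naive pluripotency genes has a median of 1.26.

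Genes of the cytosolic ribosome were measured precisely, with the 95% interval of 60 of 78 within 1 log2 unit of no difference. Of these 78, 18 (23.1%) had an estimate above 0, beside 46.9% of all genes tested. At an unadjusted p under 0.05 in edgeR, 8 had the lower estimate in high-share cells and 0 the higher one, beside 0.905% and 0.821% of all genes tested. The median log2 fold change was -0.11, and 0 passed the threshold. Rps2 had 265 to 727 CPM in high-share cells (median 533) and 419 to 919 CPM in low-share cells (median 716), a log2 fold change of -0.38 ± 0.16, and the groups overlap. The list's median was 0.40 with the well row as a covariate and 0.06 without rows A and F, so its sign was not stable. Proteasome genes had a median of -0.05, which reached 0.0073 under another scaling, genes of G1/S and S phase one of -0.13, and genes of G2/M and mitosis one of -0.24.

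Naive pluripotency genes, which mark the ground state of stem cells and vary between cells in serum, had the highest median of the lists with 3 or more tested members. Of 13 tested members 12 had an estimate above 0, beside 46.9% of all genes tested. The median log2 fold change was 1.26, and 0 passed the threshold in edgeR. Fbxo15 had counts in 10 of 15 high-share and 3 of 15 low-share cells and a log2 fold change of 4.15 ± 1.67 (unadjusted p = 0.019 in edgeR). It thus passed the filter on low counts mainly through high-share cells, so this estimate is no support for a difference. Nanog, a core factor of the naive state, had 0 to 476 CPM in high-share cells (median 177) and 0 to 385 CPM in low-share cells (median 13.6), a log2 fold change of 1.32 ± 1.15. Klf4 had a log2 fold change of 2.26 ± 1.27, Fgf4 one of 2.95 ± 1.64, and Dppa4 one of -0.06 ± 0.89. The other 9 members were detected in too few cells to test. Each was detected in more high-share than low-share cells. Among them were Esrrb in 6 high-share and 2 low-share cells, Klf2 in 8 high-share and 4 low-share cells, and Nr0b1 in 6 high-share and 1 low-share cells. The difference was small for others, such as Prdm14 in 1 high-share and 0 low-share cells and Gbx2 in 3 high-share and 2 low-share cells. The same count over all untested genes was not made, so this is a description only.

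High levels of the naive genes occurred in part of the high-share cells and in cells between the groups as well. Of the 10 cells with the highest naive score, the mean z-score of the list, 3 were high-share, 7 lay between the groups and 0 were low-share. The highest score among low-share cells was exceeded by 7 of 15 high-share cells and by 11 of the 30 cells between. Within rows A to D the list's median was 1.49, and within rows E to H it was 1.59. Without rows A and F it was 1.06, and with the well row as a covariate 3.30. Zfp42 itself had a log2 fold change of 6.72 within rows A to D and 4.29 within rows E to H. The cells of low chromosome 14 counts had naive scores of 1.27, 1.502 and 0.39 in the 3 high-share cells, and of 1.07 and 1.27 in the 2 cells between the groups, and their part in the result was not tested. Of the 3 high-share cells with at least 1000 CPM of Zfp42, which also were the 3 with at least 100 CPM of Mreg, 2 were among them. Without these cells the list's median was 0.61 and the log2 fold change of Zfp42 was 4.85, while Mreg no longer passed the filter on low counts.

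General pluripotency genes had a median log2 fold change of 0.14 over 18 tested members. Pou5f1 had 590 to 2140 CPM in high-share cells (median 1441) and 670 to 3109 CPM in low-share cells (median 1218), a log2 fold change of 0.11 ± 0.20. Dppa5a had medians of 3999 CPM in high-share and 35.3 CPM in low-share cells and a log2 fold change of 1.88 ± 1.06. Formative and primed genes had a median of -0.19 over 12, and 5 mesendoderm genes one of -0.73. T, the mesoderm factor brachyury, had medians of 5.62 CPM in high-share and 75.4 CPM in low-share cells and a log2 fold change of -1.99 ± 1.28. Fgf5, a formative marker too sparse to test, had counts in 2 high-share and 7 low-share cells. None of these genes passed the threshold in edgeR.

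No gene of the lists that mark stress or damaged cells passed the threshold. The median log2 fold change was -0.22 for p53 targets and apoptosis (24 tested), -0.25 for the ATF4 response to mitochondrial and amino acid stress (17), 0.01 for heat shock and unfolded protein genes (17) and -0.10 for defence against reactive oxygen (19), and 0 members of each passed the threshold. RNAs retained in the nucleus, which rise in relative terms when cytoplasm is lost, had a median of -0.01 over 9 tested, and 0.024 under another scaling. Malat1, the most abundant of them, had 237 to 2452 CPM in high-share cells (median 1074) and 420 to 3260 CPM in low-share cells (median 749), a log2 fold change of -0.01 ± 0.34, whose sign changed with the scaling.

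The list medians differed between fits that treated the well rows differently. With the row as a covariate, 10 of 27 medians changed sign, and 19 moved by more than the jackknife SE of the main comparison. The rows that hold both groups carry the comparison with this covariate, with 4 high-share and 5 low-share cells. Shifts from the fewer cells and from the rows therefore cannot be told apart in that fit. Among the lists of mitochondrial function, complex I had a median of 0.0032 in that fit, mitochondrial DNA maintenance 1.70, mitochondrial ribosomal proteins 0.13, biogenesis regulators -0.29 and mitochondrial dynamics and mitophagy 0.70. Among the other lists, G2/M and mitosis had a median of -1.44, formative and primed genes 0.30, mesendoderm -6.80, the ATF4 response -0.93, p53 targets and apoptosis -1.24, reactive oxygen defence 0.19, proteasome 0.13 and the nucleus-retained RNAs -1.06. Without rows A and F, 7 of the 27 changed sign, among them the TCA cycle at 0.10, glycolysis at 0.09 and reactive oxygen defence at 0.05.

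In the 30 cells between the groups, which did not form them, the slope of each nuclear gene on log2 mitochondrial share was tested in the same way. Of 8422 genes, 0 (0%) passed in edgeR and 85 (1.01%) had an unadjusted p under 0.05, and limma-trend called 0, with 361 genes at an unadjusted p under 0.05. Selenoh had a slope of -1.07 ± 0.51 log2 units per doubling of the share (unadjusted p = 0.045), of the same sign as between the groups. Zfp42 had a slope of -0.34 ± 2.46, Ddx6 one of -1.02 ± 0.95, both of the opposite sign with wide errors, and Gpx4 one of 0.84 ± 0.68. The naive list had a median slope of 0.25, and the complex I list one of 0.12. Over all 60 cells, 2 of 10769 genes passed in edgeR (0.0186%), Mtus2 and Gm340, each with counts in 11 cells: Mtus2 in 4 high-share, 7 intermediate and 0 low-share cells, and Gm340 in 6 high-share, 4 intermediate and 1 low-share cells. Their slopes were 6.27 ± 1.18 (adjusted p = 0.016) and 6.30 ± 1.25 (adjusted p = 0.024) in that fit. Mtus2 passed the filter on low counts without any low-share cell, and Gm340 with at most 1. These calls are therefore no support for a rise with the share.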

How the data were processed

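Each sample is the messenger RNA of 1 cell, parted from its DNA by G&T-seq and made into a Nextera XT library, per the labels' protocols. The authors deposited a table of raw counts, whole numbers of reads per gene, for 61 cells. The build was GRCm38, and the tools named in the submitters' processing notes are GSNAP, DESeq2, bedtools 2.19.1 and SAMtools 0.1.18. Neither the annotation nor the counting rule or its handling of strand and of multiply matching reads is given in the sources used here. No molecular identifiers are named, so reads are not independent molecules. Symbols were matched for 34880 of 36205 genes. ERCC spike-ins held at most 4 counts in a cell, so no scaling to them was run.

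The share was computed over all gene rows, and the mitochondrial genes were then left out. Nuclear counts were scaled by TMM and tested with edgeR 4.0.16 (quasi-likelihood, robust) in R 4.3.3, for genes that reached 10 counts in 10 or more of the 30 cells, with Benjamini-Hochberg adjustment over all genes tested and a threshold of 0.05. An SE is the absolute log2 fold change divided by the square root of F. CPM ranges and medians of single genes are counts per 1000000 of the TMM-scaled total of the tested genes. Summed CPM of marker lists are counts scaled to a nuclear total of 1000000. DESeq2 1.42.0 and limma 3.58.1 were alternatives. The numbers of genes detected were compared by permutation (100000 resamples, two-sided). Nuclear copies of mitochondrial genes were found with BLAST 2.17.0 among GENCODE M21 transcripts, at 90% identity over at least 100 bases. The procedure was tested on simulated data.

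Named genes were those past the threshold or, with fewer than 10 such genes, the 10 of smallest p, the 3 members of highest mean CPM in each list of mitochondrial function, and Tfam, Polrmt, Lrpprc, Ppargc1a, Myc, Pou5f1, Nanog, Zfp42 and Malat1. Other genes named were chosen after their values were seen. The groups, the comparison and the lists were chosen with earlier results of these data known. The labels name no separate cultures, so p-values measure the spread between cells of 1 culture. Pairwise correlations between cells were 0.572 to 0.800, with no sign of a library deposited more than once.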

Additional observations from a re-analysis of the deposited data

How the results depend on the processing

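The number of nuclear genes called between the groups, 0 in edgeR's quasi-likelihood test, was also 0 in 23 of 27 alternatives. DESeq2 called 2 genes, both higher in high-share cells (Mreg and Zfp42), and kept 315 genes without an adjusted p. The call of Mreg is no support for a difference, since it passed the filter mainly through high-share cells. The slope over 60 cells called 2 genes with slopes above 0, Mtus2 and Gm340. Mtus2 had counts in 0 low-share cells and Gm340 in 1, so these calls are no support for a rise with the share. With A07 kept among the low-share cells, 1 gene was called, lower in high-share cells (Rhou). Without a filter on low counts, 3570 genes were called, 1722 higher and 1848 lower, with a median of 1 cell detected, and 18 of them were among the 8400 genes tested. In the cells between the groups, no filter gave 2757 calls, of which 5 were among the genes tested. With each cell left out in turn, 0 to 1 genes were called, 0 higher and 0 to 1 lower (Ctsc, without F05). Rhou and Ctsc reached 10 counts in 0 high-share cells in those fits, so they passed the filter only through the low-share cells and these calls support nothing. Leaving out nuclear copies of mitochondrial genes removed 0 tested genes and so tested nothing. Counted once per list and alternative, 71 list medians moved by more than their jackknife SE and 658 did not. Of the 71, 19 came from the fit with the well row as a covariate, in which fewer cells carry the comparison. The difference in genes detected kept its sign and missed the threshold in each version. No paired analysis was possible because the cells carry well names only, with no replicate numbers shared between groups. Scaling to spike-ins was not run, since they held too few counts. The fits with the well row or log2 nuclear counts as a covariate, without rows A and F, without the 2 highest cells and with a mean of at least 10 CPM, and those leaving out single cells, were chosen after seeing the data.

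The log2 fold change changed sign for 25 of the 45 named genes, in 114 values under 23 alternatives. None of these values passed the threshold, and the cause was not tested. With the 10 highest cells against the 10 lowest, Ndufb8 was -0.043, Cox4i1 -0.019, Acad9 1.37, Coa7 0.25, Pnpt1 0.090, Hspe1 -0.072 and Mdh2 0.092. With the 20 highest cells against the 20 lowest, Atp5b was 0.0088, Coa7 0.076, Atad3a 0.17, Mdh2 0.0096, Lrpprc -0.054 and Myc 0.17. With A07 kept among the cells, Acad9 was 0.66, Coa7 0.20 and Mrpl45 0.049. In DESeq2, Atp5b was 0.052, Acad9 0.042, Mdh2 0.019 and Malat1 0.024. With cell cycle scores as covariates, Cox4i1 was -0.064, Acad9 0.50, Coa7 0.69, Pnpt1 0.095 and Malat1 0.11. Under DESeq2 size factors in edgeR, Atp5b was 0.052, Acad9 0.042, Mdh2 0.019 and Malat1 0.024. With groups formed on the mitochondrial coding genes, Ndufb6 was 0.32, Atp5c1 0.12, Pnpt1 0.024, Hspe1 -0.028, Slc25a4 0.35, Pdhb 0.38, Lrpprc -0.21 and Malat1 0.19. In limma-trend, Acad9 was 0.053, Pnpt1 0.0082, Hspe1 -0.0017, Pdhb 0.13 and Malat1 0.00073. With log2 nuclear counts as a covariate, Ndufb6 was 0.12, Atp5c1 0.038, Acad9 0.051, Slc25a4 0.0052, Pou5f1 -0.018 and Malat1 0.26. With the naive score as a covariate, Ndufaf4 was 0.14, Acad9 0.29, Coa7 0.30, Atad3a 0.30, Pnpt1 0.12, Hspe1 -0.026, Slc25a5 -0.098, Slc25a4 0.19 and Malat1 0.40. Scaled by plain nuclear totals, Atp5b was 0.027 and Malat1 0.021. With the rows A to D or E to H as a covariate, Atp5b was 0.0081 and Coa7 0.031. With the well row as a covariate, Atp5b was 0.50, Acad9 0.64, Ssbp1 0.40, Mrpl42 0.24, Mrpl45 0.26, Hspa9 0.16, Hspe1 -0.011, Pdhb 0.19, Polrmt -0.36 and Lrpprc -0.0058. Within rows A to D, Atp5b was 0.016, Acad9 0.50, Coa7 0.11, Mrpl45 0.61, Gabpa 0.070, Pdhb 0.063, Myc 1.23 and Malat1 0.14. Within rows E to H, Ndufb6 was 0.28, Atad3a 0.30, Pnpt1 0.49, Hspe1 -0.17, Slc25a5 -0.045, Slc25a4 0.23 and Pou5f1 -0.33. With the detected share of genes as a covariate, Atp5b was 0.10, Coa7 0.033, Atad3a 0.15, Hspe1 -0.077, Pdhb 0.19 and Malat1 0.088. As a slope over 60 cells, Coa7 was 0.078, Hspe1 -0.0094 and Lrpprc -0.0054. After thinning, Atp5b was 0.0018, Acad9 0.028 and Malat1 0.010. Without rows A and F, Atp5b was 0.10, Acad9 0.27, Hspe1 -0.21 and Mdh2 0.12. Without the 2 cells of the highest share, Acad9 was 0.098 and Malat1 0.11. Without the cell of the fewest genes, Acad9 was 0.023, Coa7 0.075 and Malat1 0.041. Without the cell of the highest share, Acad9 was 0.072 and Malat1 0.052. Without the 3 cells of low chromosome 14 counts, Coa7 was 0.17, Atad3a 0.12, Hspe1 -0.10, Slc25a5 -0.0023 and Malat1 0.20.

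With each cell left out in turn, Acad9 ranged from -0.26 to 0.71, Atad3a -0.35 to 0.090, Atp5b -0.079 to 0.062, Coa7 -0.18 to 0.22, Hspe1 -0.10 to 0.099, Malat1 -0.12 to 0.19, Mdh2 -0.26 to 0.00028, Mrpl45 -0.29 to 0.062, Ndufaf4 -0.41 to 0.12, Pdhb -0.23 to 0.16 and Pnpt1 -0.33 to 0.024.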
